A study of Mus musculus with 18 samples.

Results

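This section describes H3K9me3 peaks of mouse CD8 T cells that lay nearest to a chemosensory receptor gene. Histone H3 lysine 9 trimethylation (H3K9me3) is a mark of silent chromatin. A peak was a member when the gene name that its list gives for the nearest gene start begins with Olfr (olfactory receptors), Vmn1r or Vmn2r (vomeronasal receptors). The rule used the gene name alone and no score or width. Over the 4 peak lists, 7933 of 375410 peaks were members, and they are called receptor peaks here.

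The peak lists came from C57BL/6 splenic T cells that were cultured with antibodies to CD3 and CD28. Of them, 2 lists came from Ehmt2+/+ cells (WT 1 and WT 2) and 2 from Ehmt2-/- cells (KO 1 and KO 2). Ehmt2 encodes G9a, a methyltransferase of histone H3 lysine 9 that places mainly mono- and dimethylation. Chromatin was prepared without crosslinking by micrococcal nuclease, and 1 list was made for each immunoprecipitated library. RNA had been sequenced from other cells of the series, C57BL/6 T cells of spleen and lymph nodes after proliferating for 4 weeks in lymphopenic surroundings. These were G9a KO cells with CD4 and CD8 (KO DP, 4 libraries), G9a KO cells with CD8 alone (KO SP, 2 libraries) and G9a WT cells with CD8 alone (WT SP, 4 libraries). The labels name no Cre driver, no host strain and no pooling, and which part of Ehmt2 is deleted is not given in the sources used here. They do not say whether libraries of a group came from separate animals. The p-values therefore measure the spread between these libraries, which may be technical.

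Olfactory and vomeronasal receptors are large families of G protein-coupled receptors that lie in tandem arrays on many chromosomes. A sensory neuron of the nose expresses 1 allele of 1 olfactory receptor gene, and in immature neurons the remaining arrays carry H3K9me3 and histone H4 lysine 20 trimethylation. Type 1 vomeronasal receptors (Vmn1r) and type 2 vomeronasal receptors (Vmn2r) detect pheromones and related cues, and neither class nor the olfactory receptors have an established role in T cells. The arrays are poor in other genes and rich in L1 elements (a family of LINE retrotransposons), which is background and not a result of these lists.

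Before the results, the lists themselves differed. WT 1 held 85960 peaks, WT 2 held 23304, KO 1 held 111149 and KO 2 held 154997. WT 2 stood apart as the shortest list, and its peaks outside the receptors were annotated to simple repeats in 10.1% of cases, against 1.89% to 2.44% in the other 3 lists. The genotype of a peak list cannot be checked from the peaks. Values that depend on list length or on WT 2 are therefore given again with every list cut to its 23304 highest-scoring peaks, or without WT 2.

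Peaks that lay across the annotated start of a receptor gene were rare, and a few of these genes show what such a start looks like. The peak lists placed a peak over the start of 90 receptor genes, counted from the deposited distance and width: 10 genes in WT 1, 0 in WT 2, 36 in KO 1 and 50 in KO 2. Of the 90 genes, 80 (88.9%) had such a peak only in KO lists and 7 (7.78%) only in WT lists, where the shares among 1073 other genes with a peak over the start were 22.4% and 68.5%. The KO lists are the longer ones. With the lists at equal length 9 of 13 receptor genes (69.2%) had the peak only in KO lists and 4 (30.8%) only in WT lists. Among 616 other genes with a peak over the start the shares were then 13.3% and 81.2%. Of the 13 receptor genes 0 had the peak in both KO lists and no WT list, against 1.95% of the 616. Each of the 9 thus rests on 1 library, and 13 genes are too few to compare these shares. Among the 90, 6 genes had one in 2 lists. Olfr480, Olfr979 and Olfr1014 had it in both KO lists and in no WT list. Olfr16, which encodes the odorant receptor MOR23, and the vomeronasal receptor gene Vmn1r44 had it in WT 1 and KO 1, and Olfr482 had it in WT 1 and KO 2.

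The start regions of these 6 genes are printed from RefSeq (GRCm38.p6), from 250 bases before to 50 bases after the start. They show the base composition around the starts and not that of the whole peaks. By the deposited distances, several peaks lay mainly after the start. Both 500 bp peaks of Olfr1014, for example, had their centres 230 and 247 bp after it, so most of the printed bases lay outside them. Capitals mark matches, on either strand, to TAATTA or TAATGA, core motifs of homeodomain factors; the region of Olfr482 holds neither. The files use mm9, and whether the mm9 start is the same base was not checked. The regions are chr7:108066746-108067045 (minus strand) for Olfr480, chr9:40001201-40001500 (minus) for Olfr979, chr2:85776336-85776635 (plus) for Olfr1014, chr1:172956518-172956817 (plus) for Olfr16, chr6:89893024-89893323 (plus) for Vmn1r44 and chr7:108095519-108095818 (minus) for Olfr482.
Olfr480: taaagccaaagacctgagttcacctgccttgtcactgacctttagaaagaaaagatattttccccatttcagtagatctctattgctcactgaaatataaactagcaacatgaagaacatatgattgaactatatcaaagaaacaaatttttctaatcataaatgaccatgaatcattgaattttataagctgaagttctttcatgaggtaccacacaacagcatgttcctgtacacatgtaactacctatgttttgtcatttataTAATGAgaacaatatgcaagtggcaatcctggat
Olfr979: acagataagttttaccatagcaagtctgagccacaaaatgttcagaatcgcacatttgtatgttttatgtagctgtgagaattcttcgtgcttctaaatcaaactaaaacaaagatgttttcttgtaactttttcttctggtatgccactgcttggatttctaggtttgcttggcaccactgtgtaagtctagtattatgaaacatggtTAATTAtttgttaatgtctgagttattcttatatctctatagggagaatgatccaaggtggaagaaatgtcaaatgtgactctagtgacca
Olfr1014: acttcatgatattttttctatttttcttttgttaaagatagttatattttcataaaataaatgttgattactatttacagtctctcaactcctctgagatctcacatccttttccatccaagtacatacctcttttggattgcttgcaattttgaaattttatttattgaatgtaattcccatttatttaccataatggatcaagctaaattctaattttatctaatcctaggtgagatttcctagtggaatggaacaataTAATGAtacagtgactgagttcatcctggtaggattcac
Olfr16: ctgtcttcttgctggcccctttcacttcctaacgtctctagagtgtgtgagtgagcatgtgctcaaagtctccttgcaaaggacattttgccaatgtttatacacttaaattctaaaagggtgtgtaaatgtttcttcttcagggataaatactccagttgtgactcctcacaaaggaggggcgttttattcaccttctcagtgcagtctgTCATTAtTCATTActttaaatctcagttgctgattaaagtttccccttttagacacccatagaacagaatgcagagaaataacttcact
Vmn1r44: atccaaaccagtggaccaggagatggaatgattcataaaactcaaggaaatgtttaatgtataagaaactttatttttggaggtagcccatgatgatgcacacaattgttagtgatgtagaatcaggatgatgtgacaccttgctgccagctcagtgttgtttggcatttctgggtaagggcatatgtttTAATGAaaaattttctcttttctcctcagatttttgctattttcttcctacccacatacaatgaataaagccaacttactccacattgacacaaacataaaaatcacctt
Olfr482: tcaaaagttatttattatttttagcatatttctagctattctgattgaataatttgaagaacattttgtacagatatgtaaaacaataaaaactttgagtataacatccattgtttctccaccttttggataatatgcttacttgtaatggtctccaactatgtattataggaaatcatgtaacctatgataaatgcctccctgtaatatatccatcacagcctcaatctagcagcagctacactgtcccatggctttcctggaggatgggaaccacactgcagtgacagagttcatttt

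All 6 printed regions were rich in A and T, with 33.3%, 35.0%, 29.3%, 40%, 36.3% and 34.0% G and C in the order printed. Olfr480, Olfr1014, Vmn1r44 and Olfr482 held no CG dinucleotide, and Olfr979 and Olfr16 held 2 each. This was typical of the family: the median over 1267 receptor promoters was 35.7% G and C, against 52.7% over all 27018 promoters of the table, and 31.0% of receptor promoters held no CG against 5.77% of all. A promoter here is the region around an annotated start. The marked matches of Olfr1014 and Olfr480 lie after that start and not before it. In Olfr1014, Vmn1r44 and Olfr482 the bases after the start open with a start codon. The shares may therefore compare promoters with partly coding sequence. How many receptor promoters are of this kind was not tested. TAATTA (both strands) was found in 16.7% of receptor promoters and 5.31% of all. TAATGA (both strands) was found in 26.6% against 9.99%. Matches of the 2 motifs could overlap and were counted separately. The motif of Ebf factors (both strands) went the other way, with 0.395% of receptor promoters (5 of 1267) against 0.914% of all. It was found in 0 of the 244 receptor promoters with a peak within 1 kb of the start in any list. With only 5 matches among all receptor promoters, this 0 cannot show whether the 244 differ from the others. The fixed bases of the Ebf motif are mainly G and C, and those of TAATTA and TAATGA mainly A and T. No motif share was adjusted for base composition, and its part in these differences was not tested. Of the 1104 receptor names in the lists 927 matched a promoter (84.0%), and those with a peak within 1 kb of the start in any list (244 matched) had a median of 35.3% G and C, against 36.0% in the other 1023.

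Receptor genes made up a larger part of the gene names in the lists than receptor peaks made up of the peaks. Of the 15419 gene names in the 4 lists, 1104 (7.16%) were receptors: 857 Olfr, 147 Vmn1r and 100 Vmn2r genes or pseudogenes. Receptor peaks numbered 1733 in WT 1, 333 in WT 2, 2387 in KO 1 and 3480 in KO 2. That was 2.02%, 1.43%, 2.15% and 2.25% of each list, so WT 2 was low and the other 3 lists lay within a narrow range. The peaks belonged to 773, 240, 838 and 969 genes in the same order. A peak was found for 190 genes in all 4 lists, for 425 in 3, for 296 in 2 and for 193 in 1 list.

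The families divided the peaks in similar proportions in every list. Olfr genes held 1063 peaks in WT 1, 196 in WT 2, 1521 in KO 1 and 2210 in KO 2. Vmn1r genes held 314, 67, 399 and 559, and Vmn2r genes 356, 70, 467 and 711. The 147 Vmn1r and 100 Vmn2r names thus carried more peaks per name than the 857 Olfr names.

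A gene name takes every peak that is nearer to its start than to any other, so the count per gene depends on the distance to its neighbours. The genes with most peaks over the 4 lists were the pseudogene Vmn2r-ps11 (54 peaks), Olfr161 (52), Olfr1350 (48), Olfr16 (47), Olfr1408 (46), Vmn1r27 (45), Vmn2r69 (44), Vmn2r58 (40), Vmn1r238 (40), Olfr24 (39), Vmn2r17 (39), Vmn1r42 (38), Vmn1r66 (38), Vmn1r64 (37) and the pseudogene Vmn2r-ps54 (37). Vmn2r-ps11 had 8 peaks in WT 1, 0 in WT 2, 17 in KO 1 and 29 in KO 2, the same order as the lengths of the lists. Olfr161 had 14, 7, 14 and 17, and Vmn1r238 11, 4, 12 and 13, with fewest in WT 2 and close counts in the other 3 lists.

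The share of receptor peaks was higher in both KO lists than in both WT lists, but not with the lists at equal length. The WT mean was 1.72% ± 0.415 (SD, n = 2) and the KO mean 2.20% ± 0.069 (SD, n = 2), a KO minus WT difference of 0.474 percentage points. The exact permutation test (two-sided) gave p = 0.333, the smallest that 2 libraries against 2 can give. With all lists cut to 23304 peaks the shares were 1.57%, 1.43%, 1.45% and 1.34%, and the difference was -0.101 points (exact permutation p = 0.667). Without WT 2 the difference was 0.180 points. The share of covered bases behaved likewise, with 1.86%, 1.30%, 1.99% and 1.97% of the bases of each list in receptor peaks, a KO minus WT difference of 0.404 points (exact permutation p = 0.333) and -0.032 points at equal length.

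Receptor peaks ranked low within their lists. Each peak carries a score deposited by the authors, and its percentile is its rank among the peaks of the same list, with ties at their middle rank. The median percentile of receptor peaks was 46.0 in WT 1, 43.6 in WT 2, 40.1 in KO 1 and 40.7 in KO 2. For all other peaks of the same lists it was 49.3, 52.9, 52.0 and 50.5. Receptor peaks lay below the others in 4 of 4 lists, with a mean difference of -8.58 percentile points (SD 3.70, n = 4), and the exact sign-flip permutation test gave p = 0.125, the smallest that 4 lists can give. At equal list length the mean difference was -8.72 points, and it was -6.95 points for Olfr peaks alone.

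**Figure D1:**
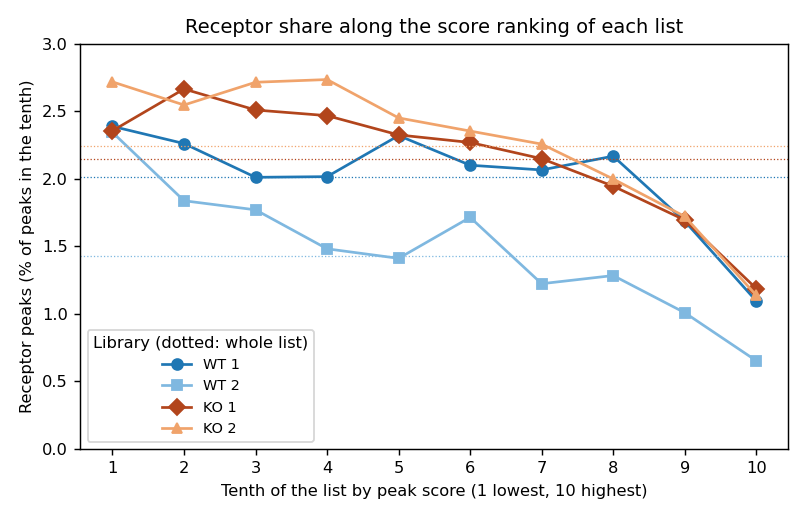
Receptor peaks as a percentage of the peaks in each decile of a list, from the lowest scores (1) to the highest (10), 1 line per library; dotted lines give the share in the whole list. In every list the top decile holds the smallest share, 1.10% in WT 1, 0.652% in WT 2, 1.19% in KO 1 and 1.14% in KO 2.

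Along the score ranking, the receptor share was 2.39%, 2.34%, 2.36% and 2.72% in the lowest decile of the 4 lists (WT 1, WT 2, KO 1, KO 2), as the plot of share by score shows. In the top decile it was 1.10%, 0.652%, 1.19% and 1.14%. WT 1 stayed between 2.01% and 2.39% up to the eighth decile and was lower in the last 2, while both KO lists were lower step by step from the sixth decile on.

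Few receptor peaks were among the 1000 highest-scoring peaks of a list. They numbered 14 in WT 1, 9.825 in WT 2 (peaks tied at rank 1000 enter as fractions), 12 in KO 1 and 15 in KO 2. As a share of the receptor peaks this was 0.808%, 2.95%, 0.503% and 0.431%, where the share over all peaks of the list was 1.16%, 4.29%, 0.900% and 0.645%. As a share of the top 1000 it was 1.40%, 0.982%, 1.2% and 1.5%. The KO minus WT difference of 0.159 points (exact permutation p = 0.667) lay within the spread of the libraries. Its sign was not stable: it was -0.050 points without WT 2, -0.5 without the first 4 Mb of each chromosome and -0.450 for peaks within 100 kb of a gene start.

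Peaks near zinc finger genes (names starting with Zfp), another family in tandem arrays that is known to carry H3K9me3, ranked higher. Their median percentile was 59.8, 65.5, 62.2 and 57.6 in WT 1, WT 2, KO 1 and KO 2. Receptor minus zinc finger peaks gave a mean of -18.7 points (SD 4.06, n = 4), with receptor peaks lower in 4 of 4 lists (exact sign-flip permutation p = 0.125). Zinc finger peaks made up only 1.29%, 1.94%, 1.01% and 0.946% of the lists but 4.00%, 3.88%, 6.40% and 5.30% of the top 1000. Other chemosensory receptors (Taar, Tas1r, Tas2r and Fpr genes: trace amine, taste and formyl peptide receptors) held 109, 13, 157 and 206 peaks, with 0 in the top 1000 of any list and median percentiles of 46.0, 43.6, 52.0 and 50.5. A group of other clustered families with tissue-restricted expression (Defb, Krtap, Mrgpr, Skint, Speer, Ugt, Prl and Psg) had median percentiles of 44.1, 32.3, 46.6 and 45.9.

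Receptor peaks were short. Their median width was 500 bp in each list, the fixed width at which many peaks of these lists stand. Exactly 500 bp wide were 51.6%, 72.1%, 61.6% and 55.1% of receptor peaks and 46.9%, 60.5%, 55.0% and 48.2% of the others (WT 1, WT 2, KO 1, KO 2). The mean widths of receptor peaks were 773, 639, 680 and 731 bp, against 841, 704, 734 and 834 bp for other peaks. The median difference was -131 bp in WT 1, 0 in WT 2, 0 in KO 1 and -129 bp in KO 2 (exact sign-flip permutation p = 0.5), so 2 of 4 lists showed no difference in the median. The widest receptor peak of each list spanned 7780, 3371, 6608 and 5571 bp. Between genotypes the median width did not differ in the whole lists. At equal list length the medians were 1212 bp in WT 1, 500 in WT 2, 1265 in KO 1 and 1633 in KO 2 (exact permutation p = 0.333).

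Receptor peaks lay in LINE elements, a class of retrotransposons, more often than other peaks did. The annotation of the lists placed 43.8%, 30.3%, 41.5% and 42.2% of receptor peaks in a LINE, against 21.8%, 13.3%, 20.1% and 19.9% of other peaks. The difference averaged 20.7 percentage points (SD 2.46, n = 4) and had the same sign in 4 of 4 lists (exact sign-flip permutation p = 0.125). It ranged from 16.1 to 22.7 points with the lists at equal length. LTR elements, the remains of endogenous retroviruses, held 29.5%, 31.2%, 23.0% and 20.4% of receptor peaks against 20.9%, 21.5%, 18.7% and 18.8% of others. Families of similar arrangement also lay in LINE elements more often than other peaks, and less often than receptor peaks in each list: the other clustered families with 37.5%, 19.5%, 32.3% and 30%, and the other chemosensory receptors with 33.9%, 15.4%, 34.4% and 28.6%. SINE elements held 2.08%, 1.80%, 2.22% and 2.41% against 7.99%, 10.5%, 7.41% and 6.97%. The genomic LINE content of the arrays could not be subtracted, since no mm9 sequence was used here.

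**Figure D2:**
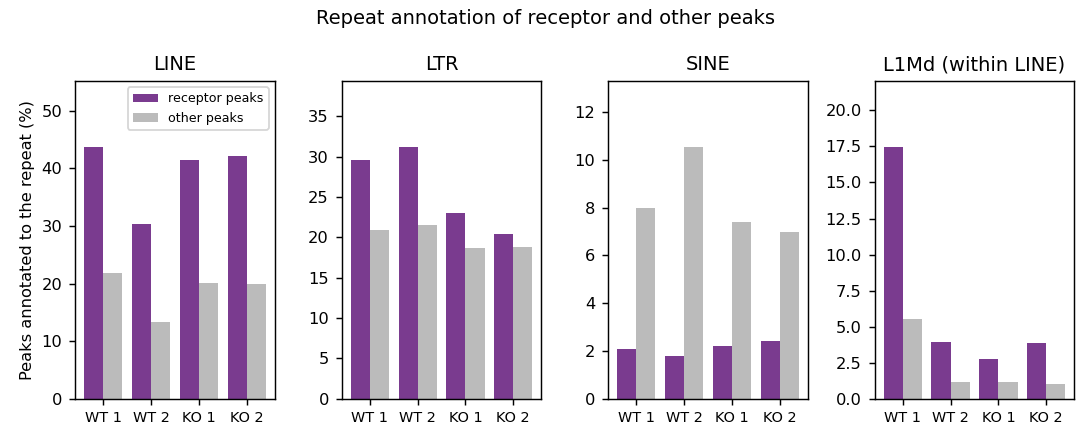
Percentage of receptor peaks (purple) and of all other peaks (grey) annotated to LINE, LTR or SINE elements and to the L1Md subfamilies, in each of the 4 lists. LINE bars of receptor peaks stand at 30.3% to 43.8%, and the L1Md bar of WT 1, at 17.5%, stands above the other 3.

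The kind of LINE differed between WT 1 and the other lists. Young L1 subfamilies whose names start with L1Md, which include elements that can still move in the mouse, held 17.5% of receptor peaks in WT 1, but 3.90% in WT 2, 2.76% in KO 1 and 3.85% in KO 2. Among other peaks the shares were 5.53%, 1.18%, 1.2% and 1.00%, so WT 1 stood apart in both sets. Within WT 1 the most frequent names were L1Md_F2 (112 receptor peaks), L1Md_F (72), L1Md_T (42) and L1Md_A (41). Older Lx elements held 14.2%, 15.6%, 22.6% and 23.0% of receptor peaks against 10.1%, 7.49%, 11.8% and 12.2% of others. The most frequent name in both KO lists was Lx5, with 93 peaks in KO 1 and 115 in KO 2. How each library's mapping treated repeated sequence is not given in the sources used here, and its part in this difference was not tested.

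Within a repeat class, the lower rank was not present everywhere. Receptor peaks in LTR elements had median percentiles of 52.3, 43.6, 46.6 and 45.9, against 57.5, 60.1, 56.7 and 54.3 for other peaks in LTR elements, lower in all 4 lists. For LINE peaks the medians were 46.0, 32.3, 40.1 and 40.7 against 42.3, 32.3, 46.6 and 45.9, lower in the KO lists, tied in WT 2 and higher in WT 1.

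Receptor peaks of 1 list were found again in another list less often than its other peaks. With an overlap of at least 1 bp, 8.71% of the receptor peaks of WT 1 met a peak of WT 2 (15.1% of all WT 1 peaks), 28.5% a peak of KO 1 (34.9%) and 37.9% a peak of KO 2 (45.4%). For WT 2 the shares were 48.0% in WT 1 (57.4% of all), 34.5% in KO 1 (44.3%) and 36.0% in KO 2 (48.8%). For KO 1 they were 20.8% in WT 1 (27.4%), 4.69% in WT 2 (9.20%) and 40.1% in KO 2 (48.7%). For KO 2 they were 19.1% in WT 1 (25.2%), 3.39% in WT 2 (7.26%) and 27.4% in KO 1 (34.3%). The receptor share was the lower one in all 12 ordered pairs, which share lists and were not tested. The 2 WT lists met each other no more often than they met the KO lists, apart from the share of WT 2 in WT 1, and the length of the list that is searched sets part of each share.

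**Figure D3:**
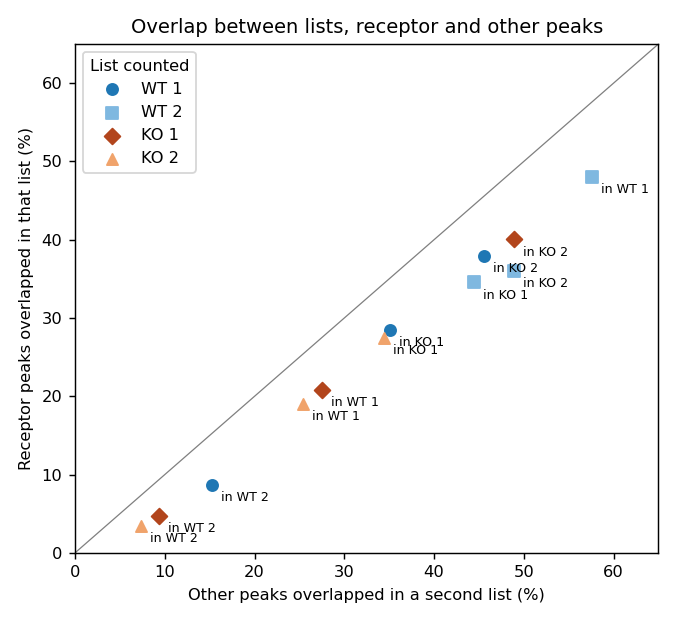
Each point is an ordered pair of lists: the share of receptor peaks of the list in the legend that overlap a peak of the list written beside the point (vertical, %) against the share of other peaks of the same list (horizontal, %). The grey line marks equal shares, and all 12 points lie under it.

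Merging overlapping peaks of the 4 lists gave 5842 receptor regions. Of these, 73 (1.25%) were present in all 4 lists, where 3.06% of all regions were. In both KO lists and no WT list were 604 (10.3%, against 11.3% of all regions), in both WT lists and no KO list 32 (0.548% against 0.993%), and in both KO lists with at least 1 WT list 347 (5.94% against 9.69%). A single list held 4325 regions (74.0% against 67.7%). With the lists cut to equal length there were 1000 receptor regions, of which 33 (3.30% against 6.02%) were in all 4 lists. Then 43 (4.30% against 5.24%) were in both KO lists and no WT list, 40 (4.00% against 4.72%) in both WT lists and no KO list, 57 (5.70% against 9.57%) in both KO lists with at least 1 WT list and 781 (78.1% against 68.6%) in 1 list. The larger number in KO lists of full length was thus not seen at equal length, where 43 and 40 were nearly the same.

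By position, receptor peaks of the 4 lists chained into 40 clusters (neighbours at most 1 Mb apart, at least 20 peaks over the lists), which held 7675 of the 7933 peaks (96.7%). A cluster is named by its chromosome and a letter in order of position, with mm9 coordinates. The largest was 2-b on chromosome 2 (85110487 to 90147567), an array of olfactory receptors with 208 gene names and 220 peaks in WT 1, 37 in WT 2, 346 in KO 1 and 470 in KO 2. It held 12.7%, 11.1%, 14.5% and 13.5% of the receptor peaks and 0.256%, 0.159%, 0.311% and 0.303% of all peaks of the lists, with 0 peaks in any top 1000. Its peaks were weak, with median percentiles of 38.1, 20.3, 40.1 and 40.7, and 56.8%, 48.6%, 50.0% and 50.6% lay in LINE elements.

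The next clusters were of the same kind. Cluster 7-g (chromosome 7, 91971038 to 94267916), with Vmn2r and Olfr genes, held 112, 23, 178 and 278 peaks. Cluster 7-i (113805874 to 116021315), with 44 Olfr names, held 79, 11, 126 and 188. Cluster 9-b (chromosome 9, 37588485 to 39925296), with 92 Olfr names, held 73, 12, 121 and 164, and 7-b (chromosome 7, 9794351 to 13792605), mainly Vmn1r genes, held 70, 14, 99 and 149. In these 4 clusters the top 1000 peaks of the lists numbered 1 in 7-g and 1 in 7-b, both in WT 1. Median percentiles lay between 20.3 and 52.0 in all of them.

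**Figure D4:**
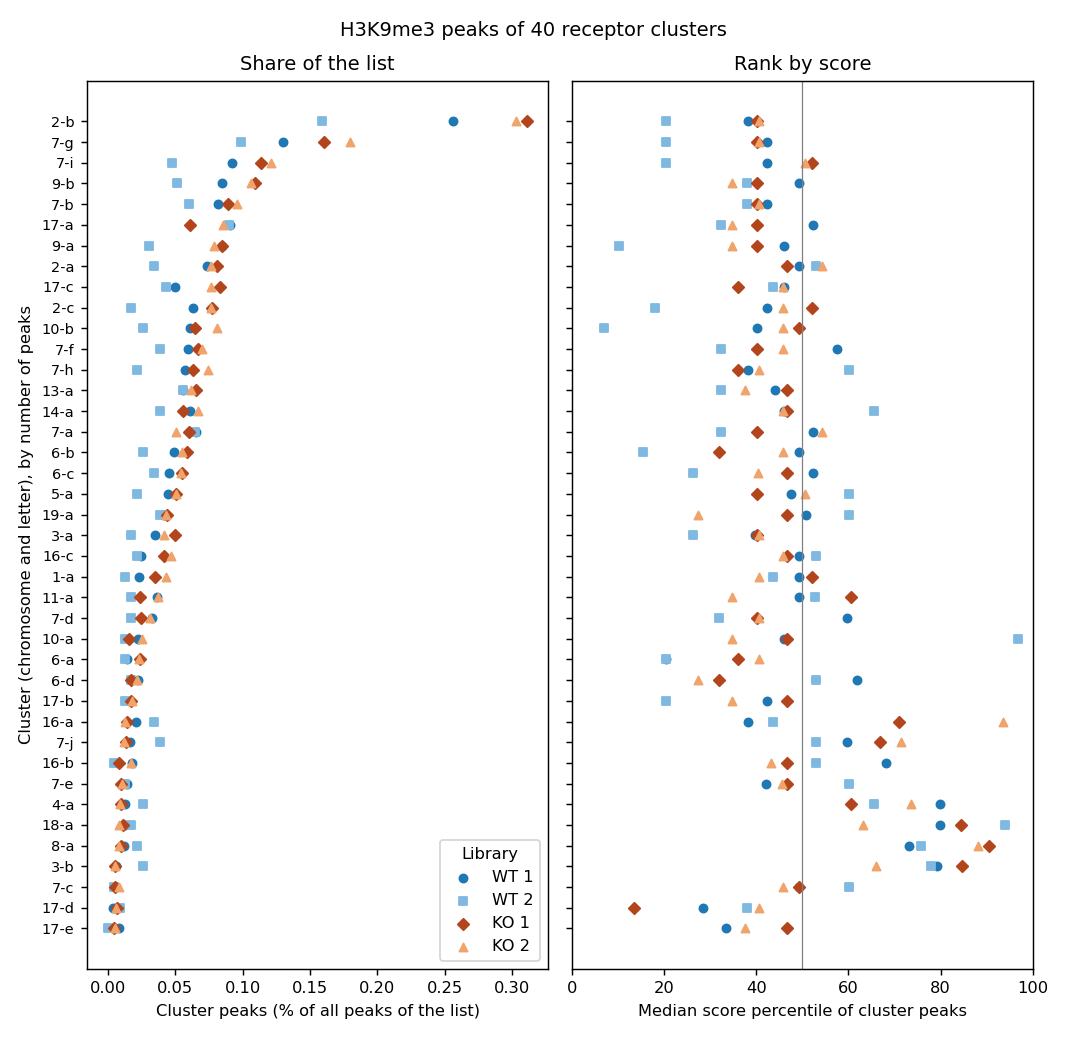
Share of all peaks of a list (left, %) and median score percentile (right) of the receptor peaks of each of 40 clusters, ordered by their number of peaks, with 1 symbol per library. The largest clusters lie left of the 50th percentile in most lists, and 3-b, 4-a, 7-j, 8-a and 18-a lie right of it in all 4.

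Other arrays held fewer peaks each. Cluster 17-a (chromosome 17, 17876763 to 21369910; Vmn2r and some Vmn1r genes) had 78, 21, 68 and 132 peaks, and 9-a (chromosome 9, 18426476 to 20159181; Olfr) had 73, 7, 94 and 122. On chromosome 2, 2-a (36162443 to 37172454) had 63, 8, 90 and 119, and 2-c (111076031 to 112008055) 54, 4, 86 and 119. Cluster 6-c (chromosome 6, 89646795 to 90225655), the V1ra and V1rb array whose deletion in mice impairs pheromone responses, had 39, 8, 61 and 84. Cluster 3-a (chromosome 3, 63832644 to 64779829), with the family C receptors around Vmn2r1 that are expressed beside other Vmn2r genes, had 30, 4, 55 and 64. Cluster 7-h (109677887 to 112455491), which holds the class I olfactory receptors, had 49, 5, 70 and 115.

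Several small clusters ranked high. Cluster 8-a (chromosome 8, 74572642 to 74641213, 3 Olfr names) had 10, 5, 11 and 12 peaks with median percentiles of 73.2, 75.8, 90.6 and 88.2. Cluster 3-b (chromosome 3, 106613619 to 106715407, Olfr266 alone) had 5, 6, 6 and 8 peaks with medians of 79.2, 78.0, 84.6 and 66.1. Cluster 4-a (chromosome 4, 3010930 to 3293573) had 11, 6, 11 and 14 with medians of 79.9, 65.5, 60.6 and 73.5, and 18-a (chromosome 18, 3000204 to 3202502, Vmn1r238 alone) had 11, 4, 12 and 13 with medians of 79.9, 94.0, 84.4 and 63.2. In 8-a and 3-b most peaks were also found in another list: at least 1 other list held 100%, 100%, 90.9% and 91.7% of the peaks of 8-a, and 100%, 100%, 100% and 87.5% of those of 3-b. In 2-b the same shares were 48.6%, 62.2%, 46.5% and 37.2%.

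Both 4-a and 18-a lie in the first 4 Mb of their chromosomes, beside the centromere of these telocentric chromosomes, and so does 16-a. As counted here, the first 4 Mb take in every peak with a start coordinate below 4 Mb. Peaks on random contigs, which have no known position on a chromosome, were not left out. How many of the peaks lay on such contigs is not given, so not all of them need lie beside a centromere. These windows held 41, 19, 40 and 48 receptor peaks, and 3, 2, 7 and 11 of the receptor peaks in the top 1000. They held 2.1%, 3.88%, 4% and 3.2% of the whole top 1000 of the lists. Of all peaks of the lists, 0.667%, 0.850%, 0.488% and 0.461% lay there, and of receptor peaks 2.37%, 5.71%, 1.68% and 1.38%. Receptor peaks there had median percentiles of 65.1, 65.5, 78.0 and 80.6, against 61.8, 69.8, 60.6 and 50.5 for other peaks in the same windows. Beyond 4 Mb the receptor medians were 46.0, 43.6, 40.1 and 40.7, so the low rank of the set was as large without these windows. Beyond 4 Mb, 11, 7.825, 5 and 4 receptor peaks were in the top 1000.

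Cluster 16-a (chromosome 16, 3106552 to 3825719, mainly Olfr161) ranked higher in both KO lists than in both WT lists. Its median percentile was 38.1 in WT 1 and 43.6 in WT 2, but 71.0 in KO 1 and 93.6 in KO 2. In the top 1000 it had 0 peaks in each WT list, 4 in KO 1 and 7 in KO 2. Its number of peaks was nearly the same in 3 lists, with 18 in WT 1, 8 in WT 2, 16 in KO 1 and 20 in KO 2. The median percentiles of WT and KO did not overlap, and the cluster was singled out after its values were seen, so no test is given. Such separation was not unique to 16-a. Clusters 2-b, 7-i and 8-a, for example, also had both KO medians above both WT medians, and other clusters did not. How often this occurs over all clusters or over bins of the genome is not given here. Non-overlap alone therefore does not set 16-a apart.

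Compared with the whole genome, arrays were not uniformly dense in peaks. Counting every peak in the span of a cluster, the density over that of the genome had a median of 1.06 in WT 1, 0.914 in WT 2, 1.26 in KO 1 and 1.15 in KO 2 over the 40 clusters. It was above 1 in all 4 lists in 11 clusters and below 1 in all 4 in 9. The same counts over bins of the genome are not given here. Whether 11 and 9 of 40 clusters differ from the rest of the genome therefore cannot be told. The 11 were 2-a, 3-b, 6-c, 7-a, 7-c, 7-e, 7-f, 7-g, 8-a, 17-d and 18-a, and the 9 were 1-a, 6-d, 7-b, 7-h, 11-a, 14-a, 16-b, 17-a and 19-a. In 6-c it was 2.08, 1.54, 2.45 and 2.48, and in 19-a 0.528, 0.667, 0.518 and 0.514. A span ends at its outermost receptor peaks, which raises the density of short clusters.

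As a share of the list, 21 of the 40 clusters (52.5%) were higher in both KO lists than in both WT lists, where 32.6% of 2457 bins of 1 Mb over the genome were. Lower in both KO lists were 9 clusters (22.5%), against 44.9% of the bins. The 21 included the large arrays 2-b, 7-g, 7-i, 9-b and 2-a, and the 9 were 3-b, 4-a, 7-a, 7-e, 7-j, 8-a, 16-a, 17-a and 18-a. In 16-c the shares were 0.0244% and 0.0215% in WT against 0.0414% and 0.0465% in KO. With the lists at equal length, 5 clusters (12.5%; 1-a, 2-a, 6-c, 7-i and 8-a) had more peaks in both KO lists, against 14.9% of the bins, and 11 (27.5%) had fewer, against 30.4%. Both shares of clusters were then close to those of the bins. Cluster 2-b then held 30, 37, 40 and 34 peaks (WT 1, WT 2, KO 1, KO 2), and 17-a 26, 21, 12 and 11.

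Merged over the lists, 31 receptor regions reached the top 1000 of at least 1 list, 10 of at least 2, 5 of at least 3 and 2 of all 4. The same counts over all regions are not given here. Whether receptor regions at the top were shared more or less than others therefore cannot be told. A region near Vmn2r97 in 17-a was one of the strongest in every list. It spanned 19102282 to 19107027 on chromosome 17 in WT 1, with scores of 238.6 in WT 1, 167.3 in WT 2, 155.8 in KO 1 and 102.1 in KO 2, and ranked 140, 183, 93 and 256 in the lists. The peaks were 3311 to 4745 bp wide, lay 53368 to 54225 bp from the gene start and were annotated to the endogenous retrovirus names RNERVK23-int and IAPLTR3-int. A region near Olfr521, outside the clusters (chromosome 7, 106906690 to 106910283 in WT 1), had scores of 173.1, 230.4, 133.0 and 131.9 and ranks of 294, 95, 142 and 125, and was annotated to ERVL-E-int in 3 of the 4 lists. Scores of different lists have no stated common scale, so their ranks are the comparable values.

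Near Olfr372 in 8-a a region (chromosome 8, 74595265 to 74599232 in WT 1) ranked 577, 2042, 401 and 552, and was annotated to Lx2A1 in 3 lists and to MuRRS-int in WT 2. A region near Vmn1r2 in 4-a (chromosome 4, 3016275 to 3018366 in WT 1) ranked 1035, 56, 373 and 470 and was annotated to GSAT_MM, the major satellite, in every list. Near Vmn1r238, the highest receptor scores of WT 2 (503.5, rank 23) and of KO 2 (248.4, rank 21) belonged to peaks that start at 3004281 and 3007252 on chromosome 18.

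The highest receptor score of all was found in 1 library. In WT 1 a peak of 7780 bp near Vmn1r77 (chromosome 7, 12595729 to 12603509) had a score of 1146 and rank 11. WT 2 had a 500 bp peak inside it with a score of 17.4 (percentile 52.9), and neither KO list had a peak there. Vmn1r27 in 6-b was similar, with a WT 1 peak of 6857 bp (score 225.6, rank 153) and KO peaks of 500 bp (rank 38498) and 2701 bp (rank 3407) at or beside its end. Vmn2r74 in 7-g had a WT 1 peak of 6995 bp (rank 274), annotated to MURVY-int, with KO ranks of 6926 and 10743. These 3 regions were in the top 1000 of WT 1 alone.

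A few leading regions, picked out after their values were seen, had a higher percentile in both KO lists than in each WT list that held them. A percentile also depends on the length of the list, and the KO lists are the longer ones. Near Olfr161, peaks that start between 3270234 and 3273779 on chromosome 16 had rank 23687 in WT 1 (776 bp), 2491 in KO 1 (2130 bp) and 241 in KO 2 (5205 bp), with no peak in WT 2, and all lay in Lx elements. Near Olfr531 in 7-j the percentiles were 84.1, 75.8, 98.9 and 95.5. The ranks there were 13441, 5365, 1159 and 6803, so WT 2 stood before KO 2 by rank. Near Olfr175-ps1 in 16-c, a region of RMER16-int, they were 96.9, 75.8, 98.4 and 99.1, so WT 1 was close to the KO lists there. Near Vmn2r26, a receptor for peptides that bind MHC class I molecules, they were 92.7, 91.0, 96.2 and 98.2. By rank (6172, 2042, 4100 and 2710) WT 2 stood before both KO lists there.

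Outside the 40 clusters lay 100, 23, 55 and 80 receptor peaks. The genes with most of them were Vmn2r121 (17 peaks over the lists), Olfr1402 (13), Olfr720 (11) and Olfr521 (10).

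Most receptor peaks lay 3 to 30 kb from the gene start. The median distance was 12773, 11756, 10725 and 10572 bp in WT 1, WT 2, KO 1 and KO 2, and 97.9%, 95.5%, 98.3% and 98.1% lay within 100 kb. Of other peaks 48.2%, 59.8%, 39.5% and 39.0% did. By family the median was shortest for Olfr (9413, 8287.5, 7943 and 7662.5 bp) and longest for Vmn2r (31940.5, 33999.5, 28673 and 28789 bp), whose genes span several exons.

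**Figure D5:**
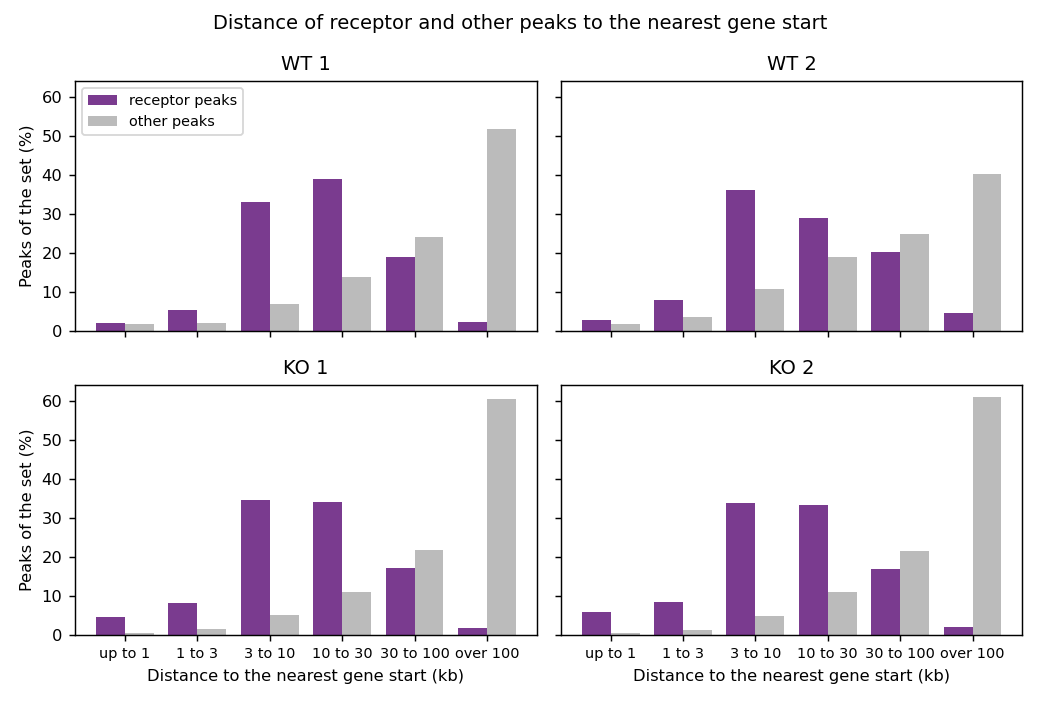
Percentage of receptor peaks (purple) and other peaks (grey) in 6 classes of distance to the nearest gene start (kb), 1 panel per list. Receptor peaks stand mainly in the classes 3 to 10 and 10 to 30 kb, other peaks mainly over 100 kb, and the class up to 1 kb is higher for receptor peaks in KO 1 (4.61%) and KO 2 (5.83%) than in WT 1 (2.02%) and WT 2 (2.70%).

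Receptor peaks within 1 kb of a gene start numbered 35 in WT 1, 9 in WT 2, 110 in KO 1 and 203 in KO 2. That was 2.02%, 2.70%, 4.61% and 5.83% of the receptor peaks, where the share among other peaks was 1.59%, 1.82%, 0.489% and 0.453%. Both KO lists lay above both WT lists for receptor peaks and below them for other peaks. The other chemosensory receptors went the same way as the receptor peaks, with 0%, 0%, 3.18% and 4.37%, and the other clustered families stood at 3.63%, 0.813%, 1.95% and 3.02%. The KO minus WT difference was 2.86 points for receptor peaks (WT mean 2.36% ± 0.483, KO mean 5.22% ± 0.866, SD, n = 2 each, exact permutation p = 0.333). The receptor minus other difference was 4.09 points larger in KO than in WT (exact permutation p = 0.333), which is the smallest p this design can give. This comparison was chosen after the values were seen.

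Most near-start receptor peaks of the long lists stood outside their 23304 highest scores. With the lists at equal length, 5, 9, 6 and 7 receptor peaks lay within 1 kb (1.37%, 2.70%, 1.77% and 2.24%), the KO minus WT difference was -0.030 points, and other peaks stood at 2.54%, 1.82%, 0.653% and 0.457%. The receptor minus other difference was then 1.59 points larger in KO, and 4.81 points larger when each list was limited to scores at or above its median. The near-start receptor peaks of the whole lists had median percentiles of 28.5, 20.3, 32.0 and 40.7, against 68.1, 60.1, 60.6 and 54.3 for other peaks near a start.

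Of the 3 families, Olfr genes had most of the near-start peaks. Their share of Olfr peaks was 2.73%, 3.06%, 6.25% and 7.74%, against 0.955%, 2.99%, 2.51% and 3.58% for Vmn1r and 0.843%, 1.43%, 1.07% and 1.69% for Vmn2r. The peaks belonged to 34, 9, 108 and 199 genes, 285 in all. Both KO lists had such a peak at 42 genes (38.9% of those in KO 1 and 21.1% of those in KO 2), of which 38 had none in a WT list. These 38 were 13.3% of the 285 genes, where 5.01% of 1977 other genes with a near-start peak were in both KO lists and no WT list. At equal list length 0 of 23 such receptor genes were, against 10 of 908 other genes (1.10%), and 23 genes are too few to compare these shares. Both WT lists had one at 4 genes, and no gene had one in all 4 lists.

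The peaks over gene starts varied in rank. Of the 10, 36 and 50 receptor peaks over a start in WT 1, KO 1 and KO 2, 3, 21 and 21 stood below the 50th percentile of their list and 2, 22 and 20 were 500 bp wide. Of 800, 155 and 228 other peaks over a start in the same lists, 149, 50 and 73 stood below that percentile. Exactly 500 bp wide were 149, 63 and 76 of these other peaks. Over the start of Olfr1014 both KO peaks were 500 bp wide, with percentiles of 32.0 in KO 1 and 4.86 in KO 2. Over Olfr480 they were 500 and 755 bp wide with percentiles of 56.7 and 70.8, and over Olfr979 500 and 1306 bp with 6.44 and 85.8. Over Olfr16 a WT 1 peak of 698 bp had a percentile of 57.5 and a KO 1 peak of 1390 bp one of 90.6. Over Vmn1r44 the WT 1 peak (649 bp) stood at 52.3 and the KO 1 peak (500 bp) at 6.44. The 2 libraries that shared a start thus often ranked it differently.

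RNA of the receptor genes was near 0 in the T cells sequenced, which were not the cells of the peak lists. Levels are FPKM, a level scaled for transcript length and library size, as deposited by the authors. Of 1448 receptor genes in the RNA table, those with at least 1 FPKM numbered 1, 2, 40 and 84 in libraries 1 to 4 of KO DP. The pair of KO SP libraries had 3 and 4 such genes, and the WT SP libraries had 1, 0, 2 and 5. Over all 23234 genes the shares with at least 1 FPKM were 44.6%, 44.2%, 42.2% and 41.9% for KO DP. They were 42.2% and 42.6% for KO SP, and for WT SP 42.8%, 43.7%, 42.1% and 42.0%. In the same order receptor genes stood at 0.0691%, 0.138%, 2.76% and 5.80%, at 0.207% and 0.276%, and at 0.0691%, 0%, 0.138% and 0.345%. The mean receptor level was 0.008 to 0.023 FPKM in 8 libraries, and 0.165 in KO DP 3 and 0.243 in KO DP 4.

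KO DP 3 and KO DP 4 stood apart in all genes, not in receptors alone. They listed 3714 and 3215 of the 23234 genes at 0, where the other 8 libraries listed 7171 to 9102, and their T cell markers (Cd3e, Cd3d, Cd8a, Cd8b1 and Cd4) summed to 1148 and 593 FPKM against 2029 to 2911. Markers of olfactory and vomeronasal neurons (Omp, Cnga2, Gnal, Adcy3, Trpc2, Ebf2 and Lhx2) summed to 14.7 and 10.5 FPKM there against 24.7 to 34.7 in the others, most of it from Adcy3 and Gnal. The neuron markers of lowest level went the other way. Omp, the olfactory marker protein gene, was 0.0745 and 0.0774 FPKM in KO DP 3 and 4 and at most 0.0245 elsewhere. Cnga2, a subunit of the olfactory cyclic nucleotide-gated channel, was 0.463 and 0.652 against at most 0.0604, and Ebf2 was 0.260 and 0.435 against at most 0.0185. The part of these differences between libraries in the receptor levels was not tested. By their titles KO DP 3 and 4 carry the same numbers as KO SP 1 and 2, which did not stand apart. Without KO DP 4, 41 receptor genes reached 1 FPKM in any library, against 90 with it. Ehmt2 itself was 7.28 to 23.6 FPKM in KO DP, 12.6 and 13.6 in KO SP and 18.1 to 42.6 in WT SP, and KO and WT libraries overlapped, so the level of the whole gene does not check the labels.

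Receptor genes with and without peaks had RNA levels of the same order. Genes with a peak in all 4 lists (189) had mean levels of 0.011 to 0.033 FPKM outside KO DP 3 and 4, genes with a peak in 1 to 3 lists (906) 0.008 to 0.022, and genes with no peak in any list (353) 0.009 to 0.024. In KO DP 4 the means were 0.219, 0.215 and 0.327 FPKM. The 264 genes with a peak within 1 kb of the start in a KO list had means of 0.005 to 0.020 FPKM outside KO DP 3 and 4.

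The highest receptor levels belonged to a few genes. Olfr99, which had no peak in any list, was 1.53, 0.947, 1.30 and 1.16 FPKM in KO DP and 2.21 and 2.24 in KO SP. In WT SP it was 0.775, 0.542, 1.71 and 0.892. Both KO SP libraries were the highest, and KO DP overlapped with WT SP. Vmn2r96 was 0.890, 2.19, 1.51 and 1.36 in KO DP and 1.32 in both KO SP libraries. In WT SP it was 0.855, 0.640, 0.603 and 0.385, and all KO libraries lay above the WT libraries. Vmn2r29 was 0.401, 0.333, 1.53 and 2.28 in KO DP, 1.24 and 1.30 in KO SP and 0.596, 0.133, 0.969 and 1.18 in the WT SP libraries, and KO and WT overlapped. Olfr524 was 0.328, 0.203, 0.622 and 0.258 in KO DP and 0.590 and 1.08 in KO SP. In WT SP it was 1.65, 0.185, 2.03 and 1.94, where WT SP 2 was low and the others were above every KO library. Vmn1r13 and Olfr39 reached 3.16 and 2.36 FPKM in KO DP 3 and 3.82 and 4.35 in KO DP 4 and were at most 0.357 FPKM elsewhere. These 6 genes were named for their levels, so no test is given.

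Genes beside the strong regions were also close to 0. Vmn2r97 ranged from 0.010 to 0.240 FPKM over the 10 libraries with a median of 0.133, and Olfr521 was listed at 0 in 8 of them, with a highest value of 0.032. Vmn1r77 was listed at 0 in every library except KO DP 4 (0.678), and Olfr161 was at most 0.127. Vmn1r2 and Vmn1r238 had identical values in several libraries (0.022 in KO DP 1, 0.091 in KO DP 3 and 0.017 in KO DP 4), so reads of these near-identical copies may have been divided between them and both levels are uncertain.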

How the data were processed

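H3K9me3 was measured by native chromatin immunoprecipitation in 4 libraries, and RNA in 10. The 4 input libraries were not analysed here. For the peaks the submitters' processing notes name Bowtie, HOMER and the build mm9, and each score is the value the authors deposited. The sources used here do not give its scaling, the threshold or the use of input. RNA levels are FPKM deposited by the authors, for which those notes name TopHat, Cufflinks and mm9; per the labels' protocols, 5 ng or less of RNA was amplified. Depth is unknown for every library, so no counting interval is given.

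Scores were ranked within a list, with ties at their middle rank, and peaks tied at rank 1000 entered as fractions. Width is end minus start. Clusters chained receptor peaks at most 1 Mb apart and needed 20 peaks. Genotypes were compared by exact two-sided permutation over libraries and peak sets within a list by exact sign flips. Neither can reach 0.05. The functions were tested on simulated data. Genes named are the 5 with most peaks per family, the gene of each cluster's leading region, genes in the top 1000 of at least 3 lists and the gene of each library's highest score; others are said to be chosen after their values were seen. The members and lists were chosen with earlier results of these data known, and the first 4 Mb and gene-start comparisons were added after seeing the data. Python 3.11.15, numpy 2.4.6, pandas 2.3.3 and matplotlib 3.10.9 were used.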

Additional observations from a re-analysis of the deposited data

How the results depend on the processing

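Of 156 alternative values for 15 results, 142 kept their direction (for counts, stayed within 1.5 times), 6 moved and 8 reversed. No p-value could pass 0.05 under any. Values that kept their direction could still differ much in size. Some of the 142 could not have changed. The top 1000 difference is the same by construction at equal length and at or above the median score. A replicate block leaves each difference as it was and alters only the p-value. A median width difference of 0 has no direction to keep. The count of 142 is thus no measure of how stable the results are. Of the reversals of KO minus WT, 3 came with the lists at equal length: -0.101 points for the share of all peaks (0.474 in whole lists), -0.0323 for covered bases (0.404) and -0.0295 for peaks within 1 kb of a gene start (2.86). The median width difference was 593 bp there and 49.5 bp for peaks at or above the median score (0 in whole lists). The median score percentile difference was 0.0256 for peaks at or above the median score (-4.40 for all) and -0.318 at equal length. The top 1000 difference of 0.159 points was -0.450 within 100 kb of a gene start, -0.5 without the first 4 Mb, -0.0944 for the top 5000 peaks and -0.0500 to 0.3675 when 1 library was left out, the lowest without WT 2. Leaving out 1 library gave 0.180 to 0.767 points for the share of all peaks, the lowest without WT 2 and the highest without WT 1, and 0.126 to 0.682 for covered bases in the same order. Regions in all 4 lists numbered 73, and 33 at equal length. Receptor peaks of WT 2 that shared 50% of the shorter peak with a peak of each other list numbered 45, a count of peaks and not of merged regions. Receptor genes of at least 1 FPKM in any library numbered 90, with 41 to 90 when 1 library was left out, the lowest without KO DP 4, and 205 at 0.5 FPKM. The cause of these differences was not tested. With the replicate number as a replicate block the difference in the share of all peaks was 0.474 points with an exact permutation p of 0.5, the smallest that 2 pairs allow; the labels do not say that the numbers pair libraries. Depth could not be used as a limit, since no file gives it.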
